A study of Homo sapiens with 4 samples.

Results

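The libraries titled GPR64_Control and Control_siRNA_48h were compared gene by gene. Both came from cells of the A673 line that had received scrambled siRNA, and both were labelled as scrambled-siRNA controls. Of the 23228 genes listed in the deposited count files, 12798 had a mean of at least 1 CPM, the library-scaled read count, over the 2 controls and were described here. The series holds 4 libraries in 4 groups: GPR64_Control, Control_siRNA_48h, GPR64_siRNA (knockdown of GPR64) and siSMPD1_48h (knockdown of SMPD1). The titles set GPR64_Control beside GPR64_siRNA (the GPR64 pair) and Control_siRNA_48h beside siSMPD1_48h (the SMPD1 pair). All 4 were A673 cultures transfected with Lipofectamine RNAiMAX and left for 48 h. They were grown in Iscove's modified medium with fetal bovine serum, insulin and beta-mercaptoethanol. A673 is a single established Ewing sarcoma line that carries the EWS-FLI1 fusion, so no other tumour or cell type is represented. The labels do not say whether the scrambled siRNA had the same sequence in both controls or whether the controls were handled together.

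A scrambled siRNA is a double-stranded RNA with no intended target. It is carried into cells by the same lipid reagent as a targeting siRNA, so that the handling, the lipid and the load on the RNA interference machinery are shared between arms. Double-stranded RNA can engage interferon-inducing sensors, and transfection, medium and cell density act on stress, growth factor and metabolic genes. A control is therefore usually read only against the knockdown handled beside it. Differences between 2 controls arise with no targeted gene, but they also hold those of depth and any batch.

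The controls differed in depth. Gene counts summed to 2882854 in GPR64_Control and 19614913 in Control_siRNA_48h, a ratio of 6.8, and to 2534861 in GPR64_siRNA and 18849264 in siSMPD1_48h. Genes with at least 1 count numbered 14484 and 16310 in the 2 controls, but those with at least 1 CPM numbered 12867 and 12665. A count of 0 allowed a level of up to 1.03 CPM in GPR64_Control and 0.16 CPM in Control_siRNA_48h. Read pairs that aligned to more than 1 place equalled 34.3% of the gene counts in GPR64_Control and 54.6% in Control_siRNA_48h. No group has a replicate, so no difference could be checked against culture spread, and no p-value is given. Each ratio has a 95% counting interval (Clopper-Pearson) that holds no spread between cultures, and reads without molecular identifiers are not independent molecules. Differences between the controls, their depth and any batch cannot be told apart.

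At least 2-fold differences with a counting interval that left out a ratio of 1 were found for 1965 genes, 15.4% of those measured. Of these, 899 (7.02%) were higher in GPR64_Control and 1066 (8.33%) were lower. At 4-fold or more there were 292 higher and 320 lower genes, and at 16-fold or more 39 and 41. Most genes stayed close to equality: 8117 genes (63.4%) had a ratio within 1.5-fold, and the median log2 ratio of GPR64_Control over Control_siRNA_48h was -0.01. The middle of the distribution ran from -0.44 at the lower quartile to 0.39 at the upper quartile. In bulk RNA, fewer cells expressing a gene and less of its RNA per cell cannot be told apart.

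The share past this rule of size depended on the level. Among genes with a mean of 1 to 5 CPM, 17.7% were higher and 13.3% lower, while at 100 CPM or more the shares were 2.15% and 3.7%. The counting interval reached a median of 1.41 to each side on the log2 scale in the lowest of these classes and 0.14 in the highest. Fewer than 10 reads in GPR64_Control lay behind 363 of the 1066 lower genes and 116 of the 899 higher genes. The differences at high levels were thus few but rested on many reads.

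**Figure D1:**
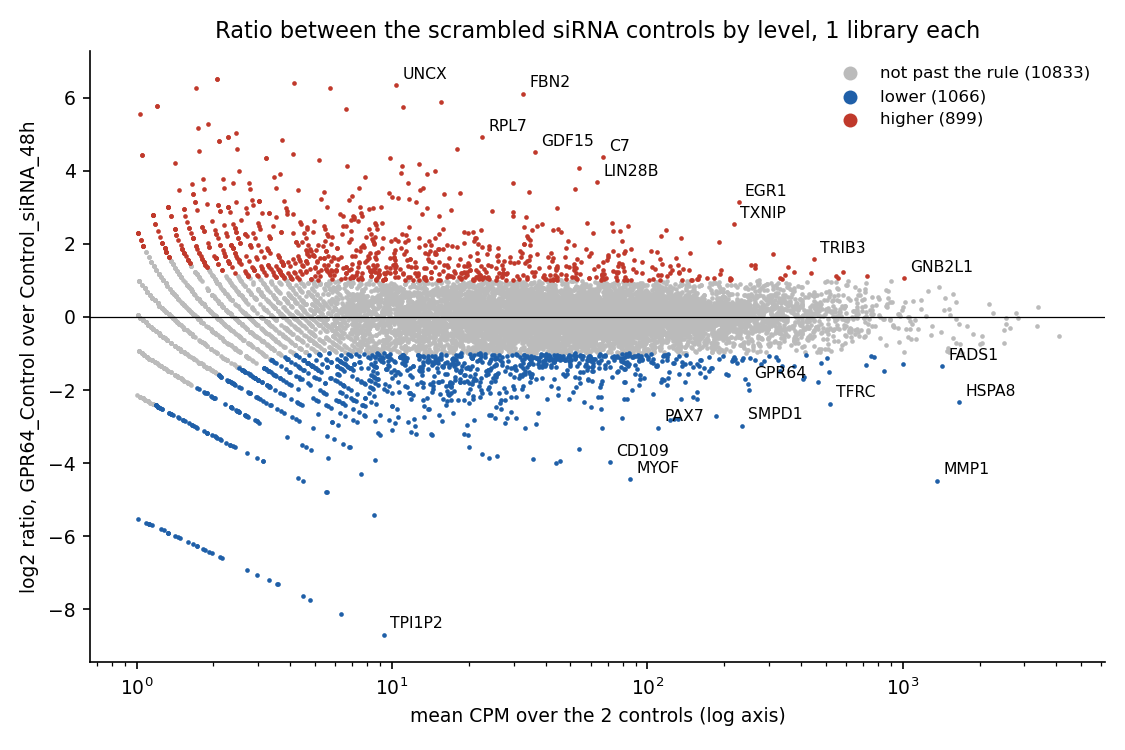
Log2 ratio of GPR64_Control over Control_siRNA_48h (y axis) against the mean CPM of the 2 controls (x axis, log scale), 1 point for each of the 12798 measured genes. Red points are the 899 genes higher in GPR64_Control, blue points the 1066 lower genes and grey points the rest. The blue band at the lower left holds genes with 0 counts in GPR64_Control, and MMP1 and HSPA8 stand low at the right.

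Among the genes with the largest positive ratios was FBN2, which encodes the microfibril protein fibrillin-2. It had 0.885 CPM in Control_siRNA_48h and 64.4 CPM in GPR64_Control, 69.3-fold higher (interval 44.3 to 128). It was 1.01 CPM in siSMPD1_48h and 20 CPM in GPR64_siRNA, so both libraries of the GPR64 pair lay above both of the SMPD1 pair. UNCX, a homeobox transcription factor gene, had 4 counts in Control_siRNA_48h and 60 in GPR64_Control (81.3-fold, interval 36.6 to 374). Its level was 0.053 CPM in siSMPD1_48h and 14.9 CPM in GPR64_siRNA, again a split by pair. LIN28B, whose protein blocks the maturation of let-7 microRNAs, had 9.11 and 13.5 CPM in Control_siRNA_48h and siSMPD1_48h and 118 and 78 CPM in GPR64_Control and GPR64_siRNA. Its ratio between the controls was 12.9-fold (interval 10.8 to 15.7). C7, a terminal complement component, had 6.09 CPM in Control_siRNA_48h and 128 CPM in GPR64_Control (20.8-fold, interval 17 to 26.1). Its 10.9 CPM in siSMPD1_48h and 27.4 CPM in GPR64_siRNA left GPR64_Control alone at the top.

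Further genes were higher by similar factors. VGF, the precursor of secreted neuropeptides, had 6.09 CPM in Control_siRNA_48h and 102 CPM in GPR64_Control, beside 2.12 and 18.8 CPM in siSMPD1_48h and GPR64_siRNA. FEV, an ETS family transcription factor gene, had 1.41 and 34.6 CPM in the controls in that order and 24.3 CPM in GPR64_siRNA. GABRA4, a GABA-A receptor subunit gene, had 0.364 and 21.9 CPM in the controls. The opioid peptide precursor PDYN had 0 counts in Control_siRNA_48h and 12 in GPR64_Control, at least 26.3-fold higher when 3 counts are taken for the 0. SP6, a zinc finger factor gene, stood apart from the others: it had 2 counts in Control_siRNA_48h, 33 in GPR64_Control and 0 in GPR64_siRNA, so that its high level was in GPR64_Control only.

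The lower genes were led by MMP1, the interstitial collagenase. MMP1 had 2609 CPM in Control_siRNA_48h and 2375 CPM in siSMPD1_48h, against 689 CPM in GPR64_siRNA and 116 CPM in GPR64_Control. The ratio between the controls was 22.4-fold (interval 20.1 to 25), and it rested on 50123 and 340 reads. MYOF, a ferlin of membrane repair and fusion, had 163 CPM in Control_siRNA_48h and 7.54 CPM in GPR64_Control (21.5-fold, interval 14.3 to 34.6). CD109, a membrane-anchored protein that binds TGF-beta, had 135 and 8.56 CPM in the same order (15.7-fold, interval 10.6 to 24.4). Both genes were also below the SMPD1 pair in GPR64_siRNA, MYOF at 63.5 CPM and CD109 at 40 CPM, but less so.

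Other lower genes followed the same order of libraries. EMP1, an epithelial membrane protein gene, had 85.5 CPM in Control_siRNA_48h, 69.8 in siSMPD1_48h, 45 in GPR64_siRNA and 5.48 in GPR64_Control. S100A10, the partner of annexin A2 at the cell surface, had 45.2, 37.8, 22.3 and 3.08 CPM in that order. PAX7, a paired-box factor gene that is active in Ewing sarcoma, had 197, 189.8, 126 and 24 CPM. In each of these genes GPR64_siRNA lay between GPR64_Control and the SMPD1 pair. AIM1 differed from them, with 42 and 30.6 CPM in the SMPD1 pair and 3.13 and 3.08 CPM in GPR64_siRNA and GPR64_Control. TFRC, the transferrin receptor that brings iron into cells, was low in 1 library: it had 168 CPM in GPR64_Control and 868, 713 and 785 CPM in Control_siRNA_48h, siSMPD1_48h and GPR64_siRNA.

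**Figure D2:**
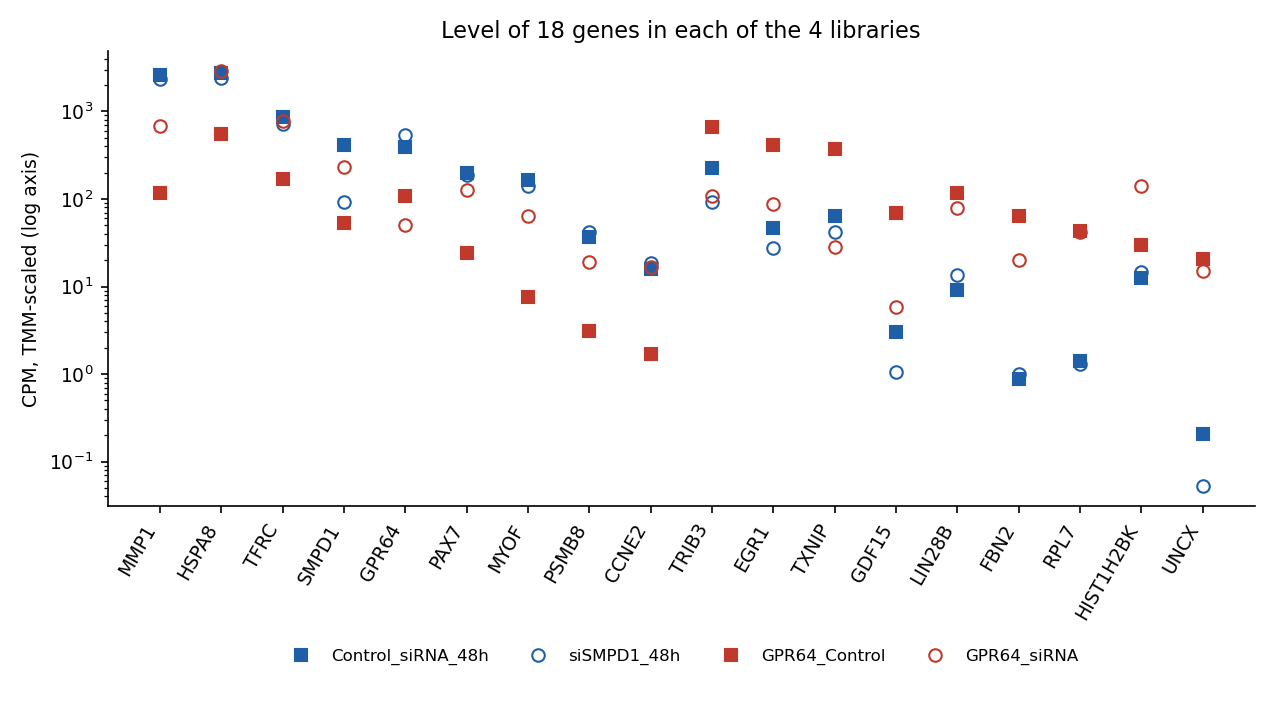
TMM-scaled CPM (y axis, log scale) of 18 genes in each of the 4 libraries, with filled squares for the controls, open circles for the knockdowns, blue for the SMPD1 pair and red for the GPR64 pair. HSPA8, TFRC and CCNE2 are low in GPR64_Control only, while RPL7, FBN2 and UNCX separate the red pair from the blue pair.

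The 2 genes that the series silenced also differed between the controls. SMPD1, the lysosomal acid sphingomyelinase gene, had 414 CPM in Control_siRNA_48h and 52.8 CPM in GPR64_Control, 7.85-fold lower (interval 6.7 to 9.27). This level in an untargeted control was below the 91.7 CPM of siSMPD1_48h, the knockdown itself, and below the 232 CPM of GPR64_siRNA. GPR64, an adhesion G protein-coupled receptor gene now named ADGRG2, had 388 CPM in Control_siRNA_48h and 109 CPM in GPR64_Control, 3.57-fold lower (interval 3.19 to 4.01). Its level was 539 CPM in siSMPD1_48h and 50.1 CPM in GPR64_siRNA, the library in which it was targeted. Each knockdown library held less of its target than the control its title pairs it with.

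Shares in a list are read here against 7.02% higher and 8.33% lower over all measured genes, which are not matched for level. Targets of ATF4, which is translated when eIF2 is phosphorylated under stress, were shifted upward in GPR64_Control. Of 45 measured targets, 14 (31.1%) were higher and 1 (2.22%) was lower, with a median log2 ratio of 0.73 beside -0.01 over all genes. GDF15, a stress-induced ligand of the TGF-beta family, had 3.02 CPM in Control_siRNA_48h and 69.9 CPM in GPR64_Control (22.8-fold, interval 17.2 to 31.5). SLC7A3, a cationic amino acid transporter gene, had 1.72 and 27.7 CPM in the same order. TRIB3, a pseudokinase that feeds back on ATF4, had 225 and 671 CPM, and CTH, the cysteine-forming enzyme cystathionine gamma-lyase, had 64.2 and 195 CPM. PPP1R15A, which directs the phosphatase that ends the response, had 67.4 and 227 CPM (3.38-fold, interval 3.07 to 3.71). The lower member was ALDH1L2, a mitochondrial folate enzyme gene, at 93.5 and 27.7 CPM. ATF4 itself was 415 CPM in Control_siRNA_48h and 571 CPM in GPR64_Control, a 1.38-fold ratio.

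The groups around this response moved less. None of the 17 measured kinases and regulators of the response and none of the 36 aminoacyl-tRNA synthetase genes was past the rule, with medians of 0.16 and 0.21. In the list of plasma membrane amino acid transporters 0 of 22 were higher and 3 were lower (13.6%). Among the lower was the glutamate transporter SLC1A1 at 64.3 CPM in Control_siRNA_48h and 10.3 CPM in GPR64_Control. The list leaves out SLC7A3, the transporter gene counted above with the ATF4 targets, which was higher. In the knockdown libraries the median ATF4 target ratio, GPR64_siRNA over siSMPD1_48h, was 0.28. Of the 15 targets past the rule between the controls, 2 were at least 2-fold the same way there and 1, DDIT4, the opposite way. The shares the same way over all higher and all lower genes were 39.9% and 27.9%. The knockdown libraries were close for single targets too: TRIB3 had 91.5 CPM in siSMPD1_48h and 107 CPM in GPR64_siRNA, CTH 26.9 and 38.8, SESN2 41.1 and 43.5, and DDIT3 35.4 and 43.1.

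Immediate-early genes answer growth factors and stress within minutes, and ERK feedback genes dampen that signal. Of 31 measured members 11 were higher (35.5%, beside 7.02% of all genes), 3 were lower (9.68%) and the others were not past the rule, with 11 members below equality and a median of 0.36. EGR1, an early zinc finger factor gene, had 46.7 CPM in Control_siRNA_48h and 410.0 CPM in GPR64_Control (8.77-fold, interval 8.04 to 9.58), beside 27.3 in siSMPD1_48h and 87.4 in GPR64_siRNA. EGR3 had 2.08 and 24.3 CPM in the controls, IER2 74.9 and 307 CPM, and JUNB 12.4 and 55.8 CPM. FOS was near equality at 13.1 and 14.7 CPM. Of the 14 genes past the rule, 7 were at least 2-fold the same way between the knockdown libraries. The shares over all higher and all lower genes were 39.9% and 27.9%. DUSP4, a phosphatase that dampens ERK, was the opposite: it was lower in GPR64_Control (22.4 and 7.88 CPM) and higher in GPR64_siRNA than in siSMPD1_48h (31.3 and 14.8 CPM).

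Among 26 p53 targets 6 were higher (23.1%) and 1 lower (3.85%), with a median of 0.42. The growth arrest gene GADD45A had 37.9 CPM in Control_siRNA_48h and 197 CPM in GPR64_Control, and the cyclin-dependent kinase inhibitor gene CDKN1A had 30.7 and 129 CPM. SESN2 and BBC3 stand in both this list and the ATF4 list. TXNIP and ARRDC4, arrestin-domain genes driven by the glucose sensor MondoA, were 2 of 12 members past the rule in their list. TXNIP had 64.3 CPM in Control_siRNA_48h and 372 CPM in GPR64_Control (5.78-fold, interval 5.33 to 6.28), against 42 CPM in siSMPD1_48h and 28.6 CPM in GPR64_siRNA. ARRDC4 had 5.83 and 63 CPM in the controls, with 2.81 and 7.05 CPM in siSMPD1_48h and GPR64_siRNA. GPR64_Control was thus above each of the other 3 libraries for both genes.

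Interferon-stimulated genes and the MHC class I pathway were lower in GPR64_Control. Interferon-stimulated genes encode antiviral effectors and sensors, and class I genes cut, carry and display peptides to T cells. Of 41 measured interferon-stimulated genes, 19 were lower (46.3%) and 0 higher (median -1.02), and 37 of the 41 lay below equality. Of 16 class I pathway genes, 10 were lower (62.5%) and 0 higher (median -1.18), with all 16 below equality. The lists were read beside a background of 8.33% lower genes. Interferon-activated factors bind a short repeated sequence in promoters of many such genes, so windows of the promoters of 4 lower genes are shown, with matches to GAAA, any 2 bases, GAAA on either strand in capitals (GRCh38.p14, from RefSeq, read 5′ to 3′ on the gene's strand).
IFIT1, chr10:89392500-89392549, plus strand: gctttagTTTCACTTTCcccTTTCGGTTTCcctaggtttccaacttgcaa
IFIT3, chr10:89327855-89327904, plus strand: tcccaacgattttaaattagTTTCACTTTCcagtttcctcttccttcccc
TAP1, chr6:32853803-32853852, minus strand: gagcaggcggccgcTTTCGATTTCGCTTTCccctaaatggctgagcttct
TAPBP, chr6:33314079-33314112, minus strand: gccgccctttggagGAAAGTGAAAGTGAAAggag

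The match was in 10 of 15 promoters of lower interferon-stimulated genes and in 22 of 33 promoters of all measured members, the same 66.7%. In the class I list it was in 4 of 9 promoters of lower genes and 6 of 12 of all members. Of all 27305 RefSeq promoters 3.65% held it, each taken from 250 bases before to 50 after the start. A match is a description of letters, and binding was not measured.

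Levels of the genes whose promoters are printed were as follows. IFIT3, an antiviral partner of IFIT1, had 19.7 CPM in Control_siRNA_48h and 4.11 CPM in GPR64_Control (4.75-fold lower, interval 2.71 to 9.35). IFIT1, which binds viral RNA ends, had 8.07 and 3.08 CPM, the latter from 9 reads. TAP1, a subunit of the pump that moves peptides into the endoplasmic reticulum, had 36.6 CPM in Control_siRNA_48h, 42.6 in siSMPD1_48h, 13.3 in GPR64_siRNA and 5.14 in GPR64_Control. TAPBP, the chaperone that loads class I molecules, had 102 and 48 CPM in the controls.

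Further members gave the same order. The immunoproteasome subunit gene PSMB8 had 37 CPM in Control_siRNA_48h and 3.08 CPM in GPR64_Control (11.8-fold, interval 6.28 to 26.3), with 42.1 in siSMPD1_48h and 19.2 in GPR64_siRNA. The class I heavy chain gene HLA-B had 45.3 and 11 CPM in the controls, and HLA-C had 241 and 91.8 CPM. DTX3L, a ubiquitin ligase gene of the interferon response, had 48.3 and 10.6 CPM in the controls and 55.3 and 13.7 CPM in siSMPD1_48h and GPR64_siRNA, a split by pair. OAS3, a sensor of double-stranded RNA, had 179 and 54.1 CPM in the controls. The class I light chain gene B2M was at 1616 and 1214 CPM, short of the rule. Between the knockdown libraries 6 of the 19 interferon-stimulated genes and 5 of the 10 class I genes were at least 2-fold the same way. The share over all lower genes was 27.9%.

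Sensors and processing factors for small and double-stranded RNA were also read, since both controls received such RNA. Of 12 measured sensors of double-stranded RNA 4 were lower (33.3%, beside 8.33% of all genes) and 0 higher (median -0.64). Of the 4, OAS3 and OAS1 also stand in the list of interferon-stimulated genes. None of the 17 genes of the RNA interference machinery was past the rule (median -0.18). DICER1, the nuclease that makes small RNAs, had 226 CPM in Control_siRNA_48h and 129 CPM in GPR64_Control. Of 15 measured NF-kB, cytokine and chemokine genes 1 was higher and 2 lower. The NF-kB subunit gene NFKB1 was the higher member, at 13.3 and 52.8 CPM.

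Heat shock genes, whose proteins fold and refold others, leaned lower in GPR64_Control. Of 26 measured members 7 were lower (26.9%) and 0 higher (median -0.48). Between the knockdown libraries 0 of those 7 were at least 2-fold the same way, beside 27.9% of all lower genes. The list's median there was 0.33. HSPA8, the constitutive HSP70 chaperone, had 2778 CPM in Control_siRNA_48h, 2414 in siSMPD1_48h and 2859 in GPR64_siRNA, but 549 CPM in GPR64_Control. The ratio between the controls was 5.06-fold (interval 4.81 to 5.32). The inducible chaperone gene HSPA1A had 44.2, 50.8, 63.1 and 6.51 CPM in the same order, and reads it shares with HSPA1B may be split or lost. The co-chaperone gene DNAJB1 had 181 CPM in Control_siRNA_48h and 63 CPM in GPR64_Control. HSP90AA1 was at 2426 and 1677 CPM, a 1.45-fold ratio short of the rule. The promoter of HSPA8 is shown because, of the 7 lower genes' promoters, 1 had a match to the heat shock element (GAA, any 2 bases, TTC, any 2 bases, GAA, on either strand), in capitals (GRCh38.p14, from RefSeq). The element was in 4 of 23 promoters of measured members and in 0.487% of all promoters.
HSPA8, chr11:123062159-123062211, minus strand: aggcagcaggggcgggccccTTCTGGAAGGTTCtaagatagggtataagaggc

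Of 25 chaperone and unfolded protein response genes of the endoplasmic reticulum 2 were lower (8%, close to the 8.33% of all genes), while 20 lay below equality (median -0.47). The 2 were the calcium-binding chaperone gene CALR at 1427 CPM in Control_siRNA_48h and 579.9 CPM in GPR64_Control, and the disulfide isomerase gene PDIA4 at 678 and 284 CPM. HSPA5, the master chaperone of that compartment, was at 755 and 544 CPM. NRF2 targets had 2 of 25 lower (8%, median -0.16), OSGIN1 and HMOX1. Both were lower in GPR64_Control and higher in GPR64_siRNA than in siSMPD1_48h. HMOX1, which breaks down heme, had 5.41 and 2.4 CPM in the controls and 7.79 and 21.9 CPM in siSMPD1_48h and GPR64_siRNA.

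**Figure D3:**
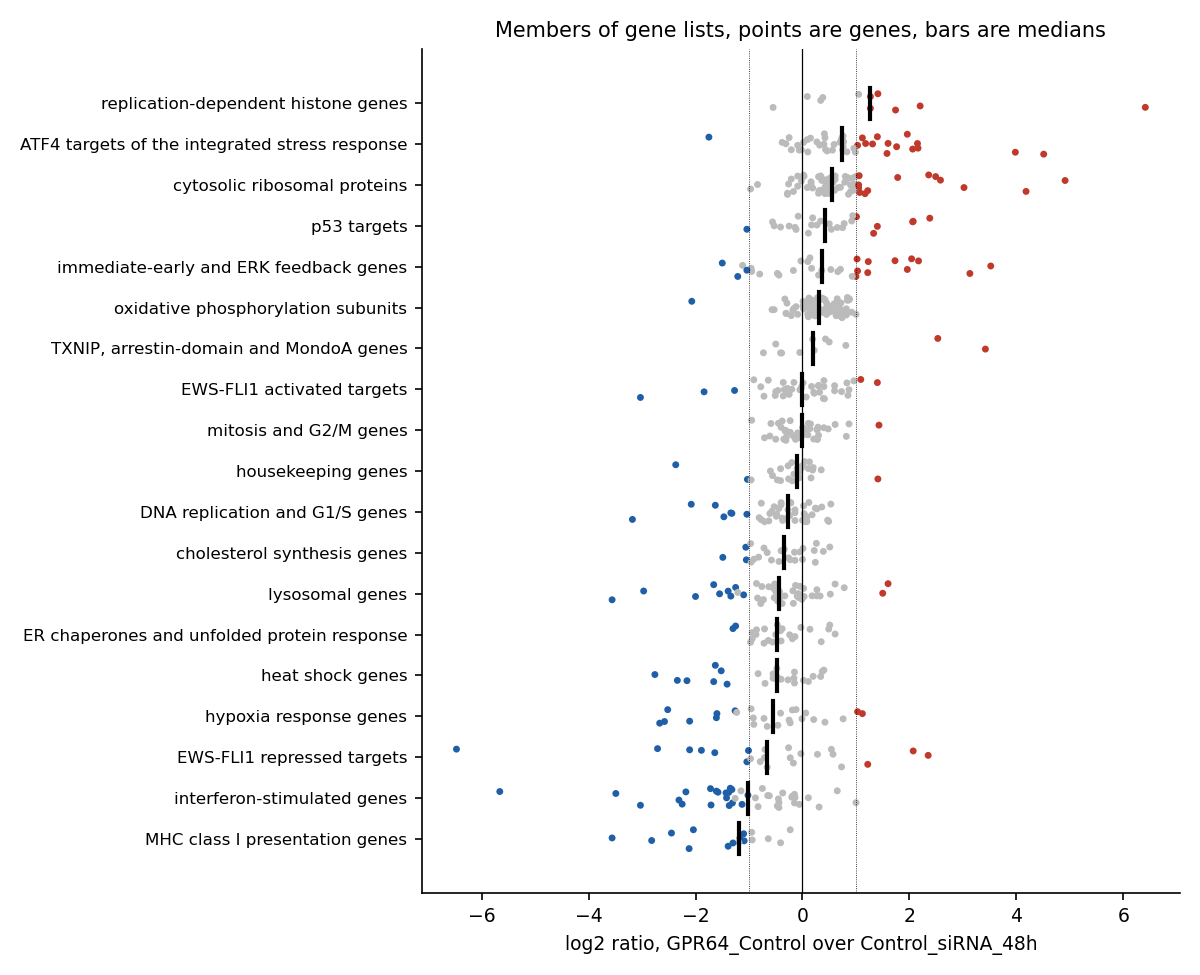
Log2 ratio of GPR64_Control over Control_siRNA_48h (x axis) for each measured member of the gene lists named on the y axis, with a black bar at each list's median, red and blue points past the rule and dotted lines at 2-fold. Medians run from -1.18 for MHC class I genes and -1.02 for interferon-stimulated genes to 0.73 for ATF4 targets and 1.27 for histone genes.

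Replication genes leaned lower and mitosis genes were level. Of 47 DNA replication and G1/S genes 7 were lower (14.9%) and 0 higher (median -0.27). Between the knockdown libraries 0 of the 7 were at least 2-fold the same way, beside 27.9% of all lower genes. Cyclin E2, encoded by CCNE2 and rate-setting for entry into S phase, had 15.9 CPM in Control_siRNA_48h, 18.8 in siSMPD1_48h, 16.8 in GPR64_siRNA and 1.71 CPM in GPR64_Control. The low value rested on 5 reads, and the ratio was 9.06-fold (interval 3.93 to 28.8). E2F8, a repressor of the E2F family, had 39.3 and 9.25 CPM in the controls. The helicase subunit gene MCM4 had 483 and 190.5 CPM. Of 47 mitosis and G2/M genes 1 was higher (median -0.01): HMMR, a spindle protein gene, at 71.3 and 193 CPM. The proliferation marker MKI67 was at 1302 and 851 CPM, short of the rule.

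Ribosomal protein genes were shifted upward in GPR64_Control, and most of those past the rule also in GPR64_siRNA. Of 77 cytosolic ribosomal protein genes 13 were higher (16.9%) and 0 lower (median 0.55). Between the knockdown libraries (median of the list 0.48) 9 of the 13 were at least 2-fold the same way, beside 39.9% of all higher genes. RPL7 had 1.41 and 1.32 CPM in Control_siRNA_48h and siSMPD1_48h and 43.5 and 42.3 CPM in GPR64_Control and GPR64_siRNA (30-fold between the controls, interval 20.3 to 48.8). RPS10 had 1.3 and 0.742 CPM in the SMPD1 pair and 24.3 and 38.4 CPM in the GPR64 pair. RPS3A had 20.9 and 16.6 CPM against 125 and 101 CPM. Such genes have many processed copies in the genome, so their unique counts are uncertain. Read pairs with more than 1 alignment also split by pair. Of all entries, assigned to genes or not, they made up 30.1% in Control_siRNA_48h and 29.1% in siSMPD1_48h. The shares in GPR64_Control and GPR64_siRNA were 21.4% and 20.1%. Relative to gene counts they were fewer in GPR64_Control (34.3%) than in Control_siRNA_48h (54.6%). Their part in these ratios was not tested.

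Other parts of the protein and energy machinery differed little gene by gene. Of 76 nuclear-encoded oxidative phosphorylation subunit genes 0 were higher and 1 lower, yet 64 of the 76 lay above equality (median 0.31). Mitochondrial ribosomal proteins had 4 of 74 higher and 1 lower (median 0.16), translation factors 1 of 37 higher (median 0.17) and proteasome subunits 0 of 38 either way (median 0.07). Mitochondrially encoded genes were not analysed here.

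Replication-dependent histone genes, whose transcripts mostly lack poly(A) tails and which exist in many similar copies, had 6 of 11 measured members higher (54.5%) and 0 lower (median 1.27). All 6 were at least 2-fold the same way between the knockdown libraries, beside 39.9% of all higher genes. The list's median there was 2.63. Only 11 of the 58 listed members were measured. The summed level of all 58 was not higher in GPR64_Control, at 296 CPM in Control_siRNA_48h and 286 CPM in GPR64_Control. It was 337 CPM in siSMPD1_48h and 672 CPM in GPR64_siRNA. HIST1H2BK had 12.5 CPM in Control_siRNA_48h and 30.1 CPM in GPR64_Control, but 14.5 CPM in siSMPD1_48h and 140.2 CPM in GPR64_siRNA. HIST1H2BD had 4.68 and 15.8 CPM in the controls and 61.1 CPM in GPR64_siRNA, and HIST1H4C had 1 and 24 counts in the controls. The highest library of the first 2 genes was thus GPR64_siRNA.

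Pseudogenes, copies of other genes whose reads are easily assigned to either copy, gave some of the largest differences. Of 205 measured pseudogenes 25 were higher (12.2%) and 21 lower (10.2%) at a median of 5.3 CPM, shares that all genes of similar levels also reached (11.7% and 14.5% at 5 to 20 CPM). TPI1P2, a copy of the glycolytic gene TPI1, had 358 reads in Control_siRNA_48h and 0 in GPR64_Control, at least 18.1-fold lower with 3 counts taken for the 0. Its levels in siSMPD1_48h and GPR64_siRNA were 23.8 and 0 CPM, while TPI1 itself was at 629 CPM in Control_siRNA_48h and 496 CPM in GPR64_Control. EIF3IP1 (242 and 0 reads) and RPL31P11 (184 and 0 reads) gave lower bounds of 12.3-fold and 9.32-fold in the same direction. In the other direction ST13P4 had 0.208 and 0.159 CPM in the SMPD1 pair and 13 and 13.7 CPM in the GPR64 pair, and NACAP1 had 1.67 and 1.43 CPM against 25.7 and 19.6 CPM. Each of these pseudogenes separated the pairs. Protein-coding genes with a single exon were higher in 31 of 223 cases (13.9%), beside 6.5% of those with more exons, at median levels of 20.4 and 40.2 CPM.

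Lipid and lysosome genes were counted against the same 8.33% lower over all genes. Of 25 cholesterol synthesis genes 3 were lower (12%, median -0.34), among them INSIG1, which retains the sterol sensor in the endoplasmic reticulum, at 257 CPM in Control_siRNA_48h and 91.1 CPM in GPR64_Control. Fatty acid synthesis genes had 1 of 18 lower (5.56%, median -0.54), the desaturase gene FADS1 at 2043 and 809 CPM. Of 48 lysosomal genes 9 were lower (18.8%) and 2 higher (4.17%), with a median of -0.43. The lysosomal peptidase gene TPP1 had 139 and 34.6 CPM, with 139 and 105 CPM in siSMPD1_48h and GPR64_siRNA, and the protease gene CTSD had 260.0 and 99 CPM in the controls. Sphingolipid enzymes other than SMPD1 were mostly near equality: in the list of 37 measured genes 2 were lower, SMPD1 and the serine palmitoyltransferase subunit gene SPTLC2, and 1 was higher (median -0.04). Autophagy genes had 2 of 38 higher and 1 lower (median -0.07).

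Hypoxia and sugar metabolism genes leaned lower. Of 26 hypoxia response genes 7 were lower (26.9%) and 2 higher (7.69%), with a median of -0.56, and the list's median between the knockdown libraries was -0.93. NDRG1 had 26.4 CPM in Control_siRNA_48h and 4.11 CPM in GPR64_Control, beside 24.2 and 12.1 CPM in siSMPD1_48h and GPR64_siRNA. PFKFB4, a regulator of phosphofructokinase, had 19.8 and 6.51 CPM in the controls and 31 and 8.23 CPM in siSMPD1_48h and GPR64_siRNA. Of 27 glycolysis genes 5 were lower (18.5%) and 1 higher (3.7%), with a median of -0.34. LDHA, lactate dehydrogenase A, had 1246 and 443 CPM in the controls.

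Matrix genes, which build and cut the material around cells, were also counted against 7.02% higher and 8.33% lower over all genes. Collagens had 4 of 24 higher (16.7%) and 3 lower (12.5%), and laminins and integrins 3 of 21 higher (14.3%) and 5 lower (23.8%). Matrix glycoproteins and proteoglycans had 4 of 28 higher (14.3%) and 5 lower (17.9%), and metalloproteinases and their TIMP inhibitors 4 of 20 higher (20%) and 5 lower (25%). With so few members each count rests on single genes. The fibrillins went opposite ways: FBN1 had 137 CPM in Control_siRNA_48h and 28.8 CPM in GPR64_Control, while FBN2 was 69.3-fold higher. COL1A2, a chain of type I collagen, had 623 and 200.4 CPM in the controls. The gelatinase gene MMP9 had 278 and 2 reads, a 19.9-fold ratio with an interval of 5.79 to 175. TIMP3, the matrix-bound inhibitor of metalloproteinases, was higher at 24.1 and 123 CPM (5.08-fold, interval 4.42 to 5.85), with 20.7 and 55.2 CPM in siSMPD1_48h and GPR64_siRNA. Plasminogen and tissue factor genes had 1 of 13 higher and 3 lower.

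Targets activated by EWS-FLI1, which mark the tumour line, were past the rule no more often than all genes, which are not matched for level. Of 42 measured ones 2 were higher (4.76%, beside 7.02% of all genes) and 3 lower (7.14%, beside 8.33%). Their median was -0.01, and 21 lay on each side of equality. NKX2-2, a homeobox target used to identify Ewing sarcoma, had 90.1 CPM in Control_siRNA_48h and 88 CPM in GPR64_Control. The orphan receptor gene NR0B1 had 73.7 and 143 CPM, just short of 2-fold. The 3 lower targets were PAX7, GPR64 and GSTM4, a glutathione transferase gene with 319 and 132 CPM. Targets repressed by the fusion had 7 of 23 lower (30.4%) and 3 higher (13%), with a median of -0.66, among them the matrix protein gene TGFBI at 323 and 49.3 CPM and the receptor gene CD44 at 76 and 0 reads, at least 3.85-fold lower.

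The labels give the tissue as muscle, but defining muscle genes were absent. MYOD1, MYOG and MYF5 had 0 counts in all 4 libraries, and 14 of 17 muscle markers had 0 counts in GPR64_Control. The summed level of those 17 was 14.8 CPM in Control_siRNA_48h and 3.08 CPM in GPR64_Control, mostly NEB and MYH3. Immune markers had a summed level of 11 and 3.43 CPM, and the lymphocyte genes CD3E and MS4A1 were at 0 in all 4 libraries. Epithelial markers summed to 182 and 87 CPM, nearly all from the keratin genes KRT8 and KRT18, and fibroblast and endothelial markers to 99.9 and 127 CPM, nearly all from PDGFRB and ENG. Neuronal markers, which Ewing cells express in part, had 3 of 16 measured members higher and 3 lower. NEFL, the light neurofilament chain, had 230.2 and 33.2 CPM in the controls, and the granule protein gene CHGA had 3.75 and 16.1 CPM. The part of other cells in the ratios above was not tested.

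Genes used as references were past the rule no more often than all genes, which are not matched to them for level. At 100 CPM or more 2.15% of all genes were higher and 3.7% lower. Of 27 housekeeping genes 1 was higher, PPIA (3.7%, beside 7.02% of all genes). The 2 lower ones were TFRC and HPRT1 (7.41%, beside 8.33%), and the list's median was -0.10. ACTB had 2178 CPM in Control_siRNA_48h and 2354 CPM in GPR64_Control, and GAPDH had 3658 and 3055 CPM. PPIA, which encodes cyclophilin A and has many processed copies, had 139 and 370.0 CPM in the controls and 151 and 372 CPM in siSMPD1_48h and GPR64_siRNA. HPRT1, a purine salvage gene, had 91.7 and 44.9 CPM.

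The control differences were then read in the knockdown libraries, which the control comparison did not use. GPR64_siRNA and siSMPD1_48h differ in the siRNA target as well as in pair, and these cannot be told apart. Of the 899 genes higher in GPR64_Control, 359 (39.9%) were at least 2-fold higher in GPR64_siRNA than in siSMPD1_48h, 466 were within 2-fold and 74 (8.23%) were at least 2-fold lower. Of all measured genes 6.26% were at least 2-fold higher there. Of the 1066 lower genes 297 (27.9%) were at least 2-fold lower in GPR64_siRNA, 746 (70%) were within 2-fold and 23 (2.16%) were at least 2-fold higher, beside 8.6% of all measured genes at least 2-fold lower. The shares over all measured genes were not matched for level. The median level was 8.02 CPM for the higher genes and 14.4 CPM for the lower, against 36 CPM over all measured genes. The median log2 ratio of the higher genes was 1.63 between the controls and 0.74 between the knockdowns, and that of the lower genes -1.55 and -0.56. The sign was shared by 76.4% of the higher genes and 80.9% of lower ones.

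**Figure D4:**
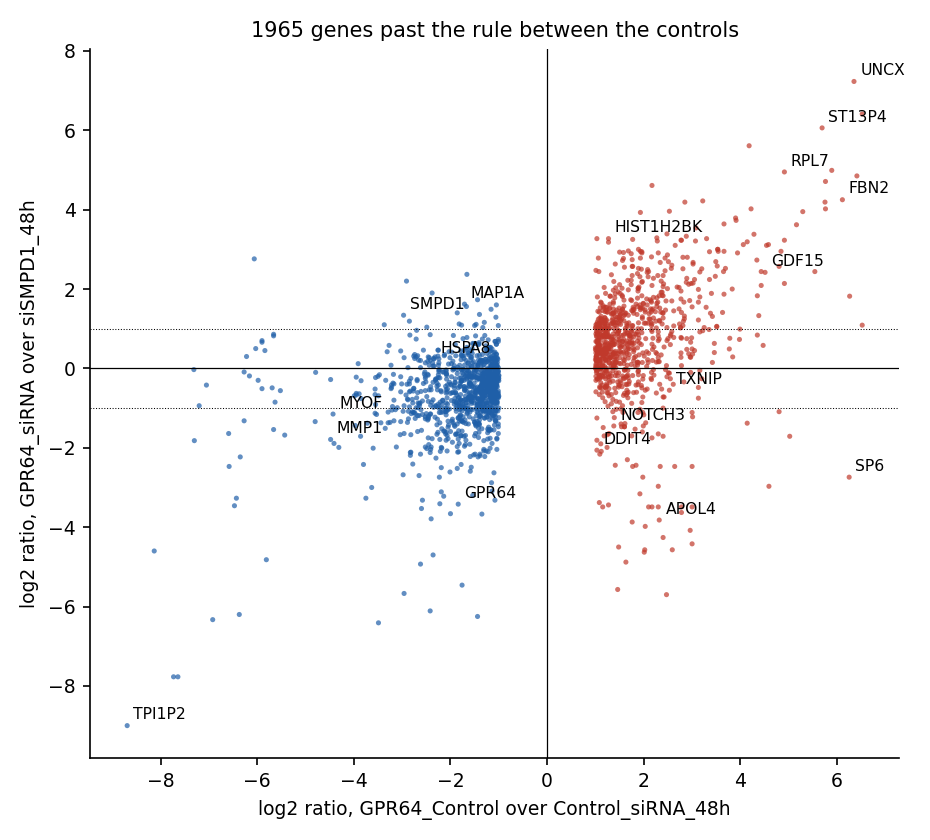
Log2 ratio of GPR64_siRNA over siSMPD1_48h (y axis) against that of GPR64_Control over Control_siRNA_48h (x axis) for the 1965 genes past the rule between the controls, red for the 899 higher and blue for the 1066 lower genes, with dotted lines at 2-fold. UNCX, FBN2 and RPL7 lie high in both, TPI1P2 low in both, and HSPA8 and TXNIP between the dotted lines.

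Genes that recurred strongly included UNCX, FBN2, RPL7, RPS10 and ST13P4 among the higher and TPI1P2, AIM1, ABCA13 and DAG1 among the lower. ST13P4 and TPI1P2 are pseudogenes, and RPL7 and RPS10 have many processed copies. The part of read assignment in the recurrence of those 4 was not tested. ABCA13, a lipid transporter gene, had 215 and 181 CPM in the SMPD1 pair and 30.5 and 41.9 CPM in GPR64_Control and GPR64_siRNA. DAG1, which encodes the laminin receptor dystroglycan, had 105 and 148 CPM against 23 and 37.2 CPM. Genes that went the opposite way included COL7A1, the anchoring fibril collagen, with 14.2 and 55.5 CPM in Control_siRNA_48h and GPR64_Control but 23.8 and 7.83 CPM in siSMPD1_48h and GPR64_siRNA. DDIT4, an inhibitor of mTORC1, had 104 and 212 CPM in the controls and 158 and 38 CPM in the knockdowns.

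To describe where the libraries separated, the 4 levels of a gene, as log2 of CPM plus 0.5, were put in order. The widest gap between neighbours was then found. This description was chosen after the values were seen. For 706 of the 1066 lower genes (66.2%) the gap set GPR64_Control alone against the other 3 libraries, and for 300 (28.1%) it set the GPR64 pair against the SMPD1 pair. For the 899 higher genes these numbers were 415 (46.2%) and 350 (38.9%). Control_siRNA_48h stood alone for 3.66% of lower genes and 8.23% of higher ones. Over all measured genes the shares were 29.6% for GPR64_Control alone, 19.9% for the pairs and 7.7% for Control_siRNA_48h alone. GPR64_siRNA stood alone for 21.3% and siSMPD1_48h for 11.5%. The shallower libraries thus stood alone more often than the deeper ones, and the part of depth was not tested. The rule used the ratio of the controls, so splits that place them on opposite sides were favoured among its genes.

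**Figure D5:**
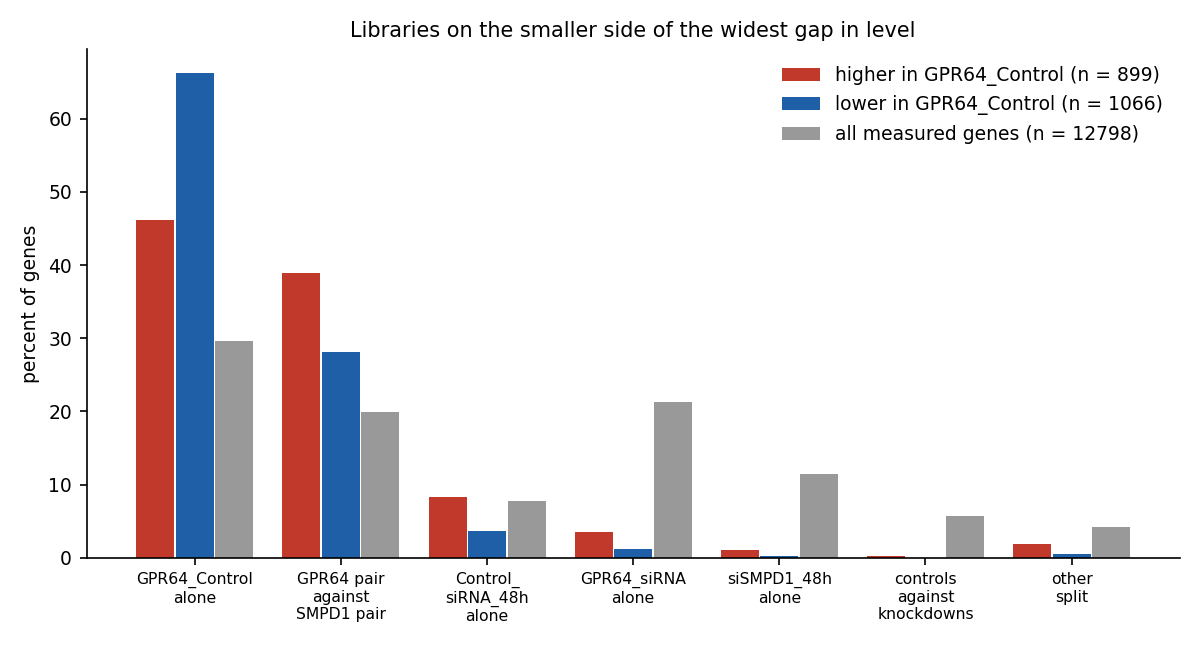
Percent of genes (y axis) by the set of libraries cut off by the widest gap among the 4 levels (x axis), for the 899 higher genes (red), the 1066 lower genes (blue) and all 12798 measured genes (grey). GPR64_Control alone accounts for 66.2% of lower genes and 46.2% of higher ones.

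Protein-coding genes were put into 5 classes of equal size by transcript length. The median log2 ratio was 0.06 in the shortest class, with a median length of 724 nucleotides, and -0.18 in the longest, with a median length of 4795 nucleotides. The share of lower genes went from 6.06% in the shortest class to 12.1% in the longest. The share of higher genes showed no steady trend, at 7.73%, 6.19%, 7.7%, 5.18% and 6.4% from the shortest to the longest class. Between the knockdown libraries the median went from 0.03 to -0.09. Ribosomal protein and histone genes are short, and the part of length in their ratios was not tested.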

How the data were processed

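Total RNA from A673 cells was extracted with TRIzol, depleted of ribosomal RNA and sequenced from both ends of each fragment, per the labels' protocols. Per the submitters' processing notes, TopHat2, HTSeq, SAMtools and bcl2fastq were used with the build hg19, and no versions are named. The counting settings are not given in the sources at hand, so reads of overlapping antisense genes may be mixed. Each deposited file is a list of raw read counts by gene symbol for 1 library, which the authors had not normalized. The 5 HTSeq summary lines, 37.6% of the entries in GPR64_Control and 44.8% in Control_siRNA_48h, were left out.

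Counts were scaled with TMM factors (edgeR 4.0.16, R 4.3.3) over the 13664 genes that reached 1 CPM in any of the 4 libraries. Log2 ratios had a prior of 0.5 count added, scaled by library size, so a fold can differ slightly from the quotient of the printed CPM. A gene was past the rule when the controls averaged 1 CPM or more, their ratio was 2-fold or more and the 95% interval (scipy 1.17.1) left out 1. Genes at 0 counts in 1 control were given bounds with 3 counts. No list median changed at 2 decimals when such members were set to their bound. The calculation was tested on simulated data.

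The members, 49 gene lists and the named genes were chosen with earlier results of these data known. Named were SMPD1 and GPR64, the 15 genes per direction whose interval bound lay furthest from 1, the 5 per direction with 0 counts in 1 control, up to 4 members per list, 10 genes per direction that recurred or reversed in the knockdown libraries, and the 10 with the highest mean CPM past the rule. Not every such gene is printed. Named after their values were seen were ACTB, ALDH1L2, ATF4, B2M, CTH, DDIT3, FOS, GAPDH, HLA-C, HSP90AA1, HSPA5, IFIT1, LIN28B, MKI67, NKX2-2, NR0B1, PPP1R15A, TAPBP, TPI1, TRIB3 and the cell type markers. Of the measured genes, 12394 (96.8%) matched RefSeq by symbol or synonym. Lengths came from GENCODE 29 transcripts, in place of protein lengths, for 99.9% of protein-coding genes. The reference tables are of another build than the files, so gene coordinates are not given. As alternatives, scaling (with DESeq2 1.42.0 size factors among others), filters, prior and thresholds were varied.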

Additional observations from a re-analysis of the deposited data

Results flagged for a closer look

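Of the 1965 genes past the rule between the controls, 41 were past it in the opposite direction between GPR64_siRNA and siSMPD1_48h, and 582 in the same direction. For 5 of the 41 both counting intervals lay wholly beyond 2-fold. These differences in direction were not tested, since each group is 1 library.

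APOL4, an apolipoprotein L gene, had 1.2 CPM in Control_siRNA_48h and 6.17 CPM in GPR64_Control, but 6.15 CPM in siSMPD1_48h and 0.392 CPM in GPR64_siRNA. Its log2 ratios were 2.32 between the controls and -3.82 between the knockdowns. NOTCH3, a receptor gene of the Notch pathway, had 26.6 and 69.2 CPM in the controls and 69.6 and 25.5 CPM in the knockdowns in the same order, with log2 ratios of 1.38 and -1.45.

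MAP1A, which encodes a microtubule-associated protein, went the other way. It had 369.6 CPM in Control_siRNA_48h and 113 CPM in GPR64_Control (log2 ratio -1.71), and 134 CPM in siSMPD1_48h and 413 CPM in GPR64_siRNA (1.62). OSGIN1, an NRF2 target, had 57 and 0 reads in the controls, at least 2.89-fold lower with 3 counts taken for the 0, and a fitted log2 ratio of -6.06 that depends on the prior. In the knockdowns it had 2.28 and 15.7 CPM (2.76). SMPD1 had log2 ratios of -2.97 and 1.34, and siSMPD1_48h is the library in which it was targeted.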

How the results depend on the processing

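The counts depended on the thresholds more than on the scaling. At a mean of at least 5 CPM 555 genes were higher, 216 higher and 195 lower genes recurred at 2-fold between the knockdown libraries, and 25 of all went the opposite way. The median of the NF-kB, cytokine and chemokine genes reversed to 0.33 there. At 1.5-fold 1864 genes were higher and 2121 lower, at 4-fold 292 and 320, and with intervals wholly beyond 2-fold 440 and 426. With at least 10 counts in each control 703 genes were lower. Alternatives chosen after seeing the data gave, at 1.5-fold between the knockdowns, 511 lower genes that recurred and 156 of all that went the opposite way, and, with at least 10 counts in each control, 151 and 51. The other scalings (plain totals, DESeq2 size factors, TMM over the 2 controls, upper quartile) and the prior of 2 kept each count within 1.5 times, and moved the median of all genes from -0.01 to at most 0.04. The higher genes made up 40.7% to 51.3% of those past the rule over all settings, beside 45.8%. Of 1414 values of named genes under alternatives, 1406 stayed within their counting interval and 0 reversed, and of 307 list medians 7 moved by at least 0.1 and 1 reversed.

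No paired analysis was possible because each group is 1 library and the controls share no second number. No library could be left out, for the same reason. The depth of GPR64_Control limits genes under about 5 CPM, whose median interval reached 1.41 to each side on the log2 scale.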

Other observations

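Other RNA classes were counted as well. Of 154 long non-coding RNA genes, with a median of 3.85 CPM, 25 were higher in GPR64_Control (16.2%) and 9 lower (5.84%), beside 17.7% and 13.3% of all genes at 1 to 5 CPM. Of 50 measured small nucleolar RNA genes, with a median of 2.17 CPM, 0 were higher and 10 lower (20%, median log2 ratio -0.49). In the list of nuclear and snoRNA host RNAs 5 of 22 were higher and 2 lower. The host genes SNHG5 and SNHG8 had 45.1 and 34.2 CPM in Control_siRNA_48h and 132 and 106 CPM in GPR64_Control. NEAT1, the scaffold of paraspeckles, had 760.4 and 267 CPM, with 677 and 584 CPM in siSMPD1_48h and GPR64_siRNA. Small nuclear and other short RNAs had 1 of 6 measured members higher.

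Receptors and smaller lists were mixed. Of 17 adhesion G protein-coupled receptor genes 2 were higher and 3 lower, among them GPR98, the gene of a very large receptor, at 48.2 and 3.43 CPM in the controls and 46.3 and 8.62 CPM in siSMPD1_48h and GPR64_siRNA. YAP and TEAD factors and targets had 1 of 18 higher and 2 lower, and BCL2 family genes 1 of 15 higher, the p53 target BBC3. Among protein-coding genes in the class with the highest GC content of 5 of equal size, with a median of 62.4%, 10.9% were higher, beside 4.52% in the class with a median of 40%. The median levels of these classes were 27.5 and 47.7 CPM.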
